A study of Mus musculus with 23 samples.

Results

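The genes described here are 10 genes of the intestinal epithelium whose signal was high on some arrays of whole lung RNA: Reg3b, Fabp2, Fabp6, Zg16, Vil1, Muc2, Tff3, Spink4, Lgals4 and Krt20. They were chosen for that signal, so their levels are given as a description, and group differences in them are no independent evidence. Of 18193 genes with a probe set annotated to 1 symbol, these 10 were read by 13 of the 45037 probe sets tested. Each gene is given by its brightest probe set, and the other probe sets of Reg3b and Zg16 are given beside it.

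Total RNA of the right lung was measured on 23 arrays. The groups were C57BL/6 (B6) and BALB/c (BALB) mice of both sexes, either CF-/- (called CF) or CF+/+ (called control). Each strain, sex and genotype had 3 arrays, except B6 CF males with 2. The labels give no age, no treatment and no detail of the CF allele. Nothing in them ties an array to an animal, so the spread behind each p-value is that of arrays and may be technical.

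The intestine is lined by a sheet of epithelium in which absorptive enterocytes take up fat, sugar and bile acids, goblet cells secrete mucus, and Paneth cells at the base of the small intestinal crypts secrete antimicrobial proteins. The lung is lined by other epithelia, with ciliated, club and secretory cells in the airways and flat and surfactant-producing cells in the alveoli. Fabp2 and Fabp6 are fatty acid and bile acid binding proteins of the small intestine, and Muc2 is the main gel-forming mucin of intestinal goblet cells. Cystic fibrosis arises from loss of Cftr, an epithelial chloride and bicarbonate channel that is active in both organs.

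The sequences before the transcription starts of 4 of these genes show what the members share and do not share in DNA, since their signals moved together on these arrays. RefSeq promoter sequences of build GRCm38.p6 held 7 of the 10 genes, and the 250 bases before the start are shown 5′ to 3′ on the gene's own strand, with matches to the letters searched in capitals. Reg3b lies at chr6:78370635-78370884 on the plus strand, Fabp6 at chr11:43601563-43601812 on the minus strand, Muc2 at chr7:141690090-141690339 on the plus strand and Fabp2 at chr3:122894822-122895071 on the plus strand.
Reg3b: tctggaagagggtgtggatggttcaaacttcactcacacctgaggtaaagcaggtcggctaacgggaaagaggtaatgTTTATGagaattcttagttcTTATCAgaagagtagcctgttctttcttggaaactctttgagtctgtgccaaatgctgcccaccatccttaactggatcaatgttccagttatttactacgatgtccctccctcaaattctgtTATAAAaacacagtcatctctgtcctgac
Fabp6: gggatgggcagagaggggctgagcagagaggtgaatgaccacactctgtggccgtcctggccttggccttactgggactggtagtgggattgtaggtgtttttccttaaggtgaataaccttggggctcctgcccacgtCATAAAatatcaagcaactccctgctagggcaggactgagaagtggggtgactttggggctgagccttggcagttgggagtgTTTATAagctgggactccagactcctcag
Muc2: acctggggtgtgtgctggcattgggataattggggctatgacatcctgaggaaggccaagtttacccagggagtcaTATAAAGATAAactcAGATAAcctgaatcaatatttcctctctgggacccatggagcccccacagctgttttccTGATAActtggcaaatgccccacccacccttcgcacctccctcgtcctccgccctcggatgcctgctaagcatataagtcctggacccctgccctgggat
Fabp2: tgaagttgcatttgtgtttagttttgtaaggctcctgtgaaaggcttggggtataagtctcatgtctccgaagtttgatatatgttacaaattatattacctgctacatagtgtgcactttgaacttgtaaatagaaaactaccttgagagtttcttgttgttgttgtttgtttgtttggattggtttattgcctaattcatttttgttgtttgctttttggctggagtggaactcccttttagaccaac

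The letters searched, on both strands, were TTTATG or TTTATA for the intestinal factors Cdx1 and Cdx2, AGATAA or TGATAA for GATA factors, CAAAGTCCA for HNF4, the HNF1 palindrome, and TATAAA for the TATA box. TTTATA is TATAAA read on the other strand, so each TATA match was also counted as a Cdx match. A Cdx match was present in 4 of the 7 upstream sequences (Reg3b, Fabp6, Muc2 and Krt20), against 20.9% of 32851 upstream sequences of the same length. A GATA match was present in Reg3b, Muc2 and Krt20, against 16.6% of all. In Reg3b, Fabp6 and Krt20 the TATA letters began 29 bases before the start, and TATA letters were present in 12.4% of all upstream sequences. The HNF4 and HNF1 letters were not in any of the 7 windows, and 0.384% and 0.00913% of all windows held them. Fabp2 held no match to any of the letters. These matches describe letters in a window.

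The arrays were alike in their medians, which lay between 4.56 and 4.64 on the log2 scale. The ratio of 3′ to 5′ control probe sets, a measure of RNA integrity, lay between -0.22 and 0.13 (log2) for Gapdh and between 0.35 and 0.58 for Actb. Cftr signal was 5.40 to 5.85 on BALB control arrays and 3.49 to 4.42 on BALB CF arrays, without overlap. In B6 it was 4.04 to 4.58 on control and 3.86 to 4.31 on CF arrays, so Cftr did not separate the genotypes there. Where its probe set lies relative to the CF mutation was not checked. Detection calls were not used here, so it cannot be told whether a low value is background.

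Signal was high for all 10 genes on 5 arrays, for some of them on 3 more, and low on the other 15. An array was counted as standing apart for a gene when its value exceeded that gene's median over the 23 arrays by at least 1 log2 unit, which is a 2-fold change. All 10 genes stood apart on BALB control female 1, BALB control female 3, BALB control male 1, BALB control male 2 and B6 control female 1. Fewer did so on BALB CF female 1, with 6 genes, BALB control male 3, with 5, and BALB control female 2, with 3. On the remaining 15 arrays 0 of 10 genes stood apart, and the largest excess was 0.61 for Lgals4 on B6 CF male 2.

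The mean excess of the 10 genes over their medians, used below as the member score, was 3.44 on BALB control female 1, 3.25 on male 1, 3.05 on female 3 and 2.82 on male 2 of the same group. It was 1.04 on BALB control male 3 and 0.77 on BALB control female 2. It was 2.59 on B6 control female 1 and 1.62 on BALB CF female 1. The other 15 arrays had scores between -0.20 and 0.04. The member score was thus raised on arrays of both strains, both sexes and both genotypes, in 6 of 6 BALB controls, 1 of 6 B6 controls, 1 of 6 BALB CF arrays and 0 of 5 B6 CF arrays.

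**Figure D1:**
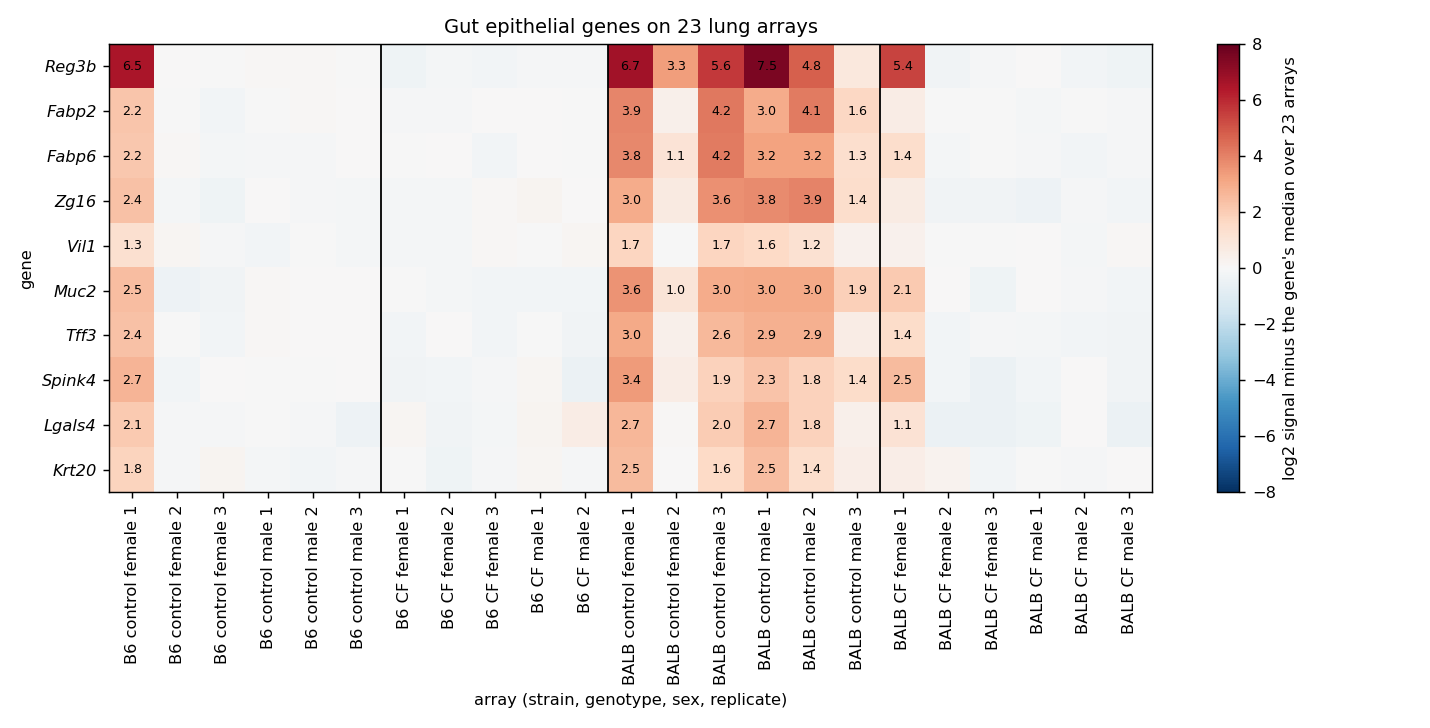
Excess of log2 signal over the gene's median across 23 arrays (colour), with genes in rows and arrays in columns. Excesses of at least 1 are printed in the cells. The raised cells lie on the 6 BALB controls, on B6 control female 1 and on BALB CF female 1.

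Among the absorptive genes, Fabp2, the intestinal fatty acid binding protein of enterocytes, read 6.67, 3.15 and 6.96 on BALB control females 1, 2 and 3 and 5.75, 6.90 and 4.41 on BALB control males 1, 2 and 3. It read 4.95 on B6 control female 1 and 3.35 on BALB CF female 1, and 2.57 to 2.85 on the other 15 arrays. Fabp2 was therefore high on most BALB controls, near its low range on BALB control female 2, and only slightly raised on BALB CF female 1.

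Fabp6, the bile acid binding protein of the ileum, read 7.27, 4.52 and 7.61 on BALB control females and 6.69, 6.67 and 4.78 on BALB control males. It read 5.63 on B6 control female 1, 4.86 on BALB CF female 1 and 3.23 to 3.52 elsewhere. All 8 arrays lay above the range of the other 15 for Fabp6.

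Vil1 encodes villin, an actin-bundling protein of the brush border. It read 4.83, 3.04 and 4.79 on BALB control females and 4.68, 4.31 and 3.43 on BALB control males. It read 4.34 on B6 control female 1 and 3.42 on BALB CF female 1, against 2.84 to 3.27 on the other 15 arrays. Vil1 had the smallest excess of the 10 genes on 7 of the 8 arrays, all but BALB control female 3, where Krt20 had it, and its value on BALB control female 2 was inside the low range.

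Krt20, an intermediate filament protein of mature intestinal surface cells, read 6.13, 3.63 and 5.21 on BALB control females and 6.04, 4.98 and 4.09 on BALB control males. It read 5.37 on B6 control female 1 and 4.13 on BALB CF female 1, against 3.22 to 3.84 elsewhere. Lgals4, a galectin of the intestinal epithelium, read 7.88, 5.33 and 7.26 on BALB control females and 7.91, 7.04 and 5.59 on BALB control males. It read 7.31 on B6 control female 1, 6.36 on BALB CF female 1 and 4.71 to 5.82 elsewhere. For Lgals4 the values of BALB control female 2 and male 3 were inside the range of the 15 low arrays.

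Among the goblet cell genes, the mucin Muc2 read 6.96, 4.40 and 6.33 on BALB control females and 6.38, 6.40 and 5.23 on BALB control males. It read 5.83 on B6 control female 1 and 5.43 on BALB CF female 1, against 2.92 to 3.47 elsewhere. Muc2 was raised by at least 1 unit on all 8 arrays, so no value of the 8 overlapped those of the other 15.

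Tff3, a trefoil peptide secreted with mucus, read 7.91, 5.25 and 7.47 on BALB control females and 7.72, 7.72 and 5.45 on BALB control males. It read 7.23 on B6 control female 1 and 6.31 on BALB CF female 1, against 4.56 to 4.96 elsewhere. Spink4, a peptide of the serine protease inhibitor family found in goblet cells, read 8.17, 5.36 and 6.62 on BALB control females and 7.08, 6.59 and 6.22 on BALB control males. It read 7.46 on B6 control female 1 and 7.30 on BALB CF female 1, against 4.32 to 4.95 elsewhere. Those 2 arrays lay above all BALB controls but female 1 for Spink4, which was not so for Fabp2.

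Zg16, a lectin of goblet cell granules, read 7.56, 5.29 and 8.22 on BALB control females and 8.35, 8.51 and 5.95 on BALB control males. It read 6.93 on B6 control female 1 and 5.21 on BALB CF female 1, against 4.14 to 4.80 elsewhere. Its 3 probe sets gave the same picture across the 23 arrays (Pearson r of 0.967 to 0.990), with largest excesses of 2.04, 3.94 and 4.46.

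Reg3b, a secreted lectin that binds bacteria and is strongly induced in the inflamed or colonised gut, had the widest range. It read 10.42, 7.05 and 9.36 on BALB control females and 11.27, 8.47 and 4.57 on BALB control males. It read 10.23 on B6 control female 1 and 9.15 on BALB CF female 1, against 3.36 to 3.82 elsewhere. The second Reg3b probe set followed it across the arrays (r = 0.995), with a largest excess of 8.64 against 7.55. BALB control male 3, where Muc2 and Spink4 stood apart, had the lowest Reg3b of its group. The second Reg3b probe set read 4.68 on that array and stood apart there. It did so on 8 arrays, against 7 for the brightest probe set.

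**Figure D2:**
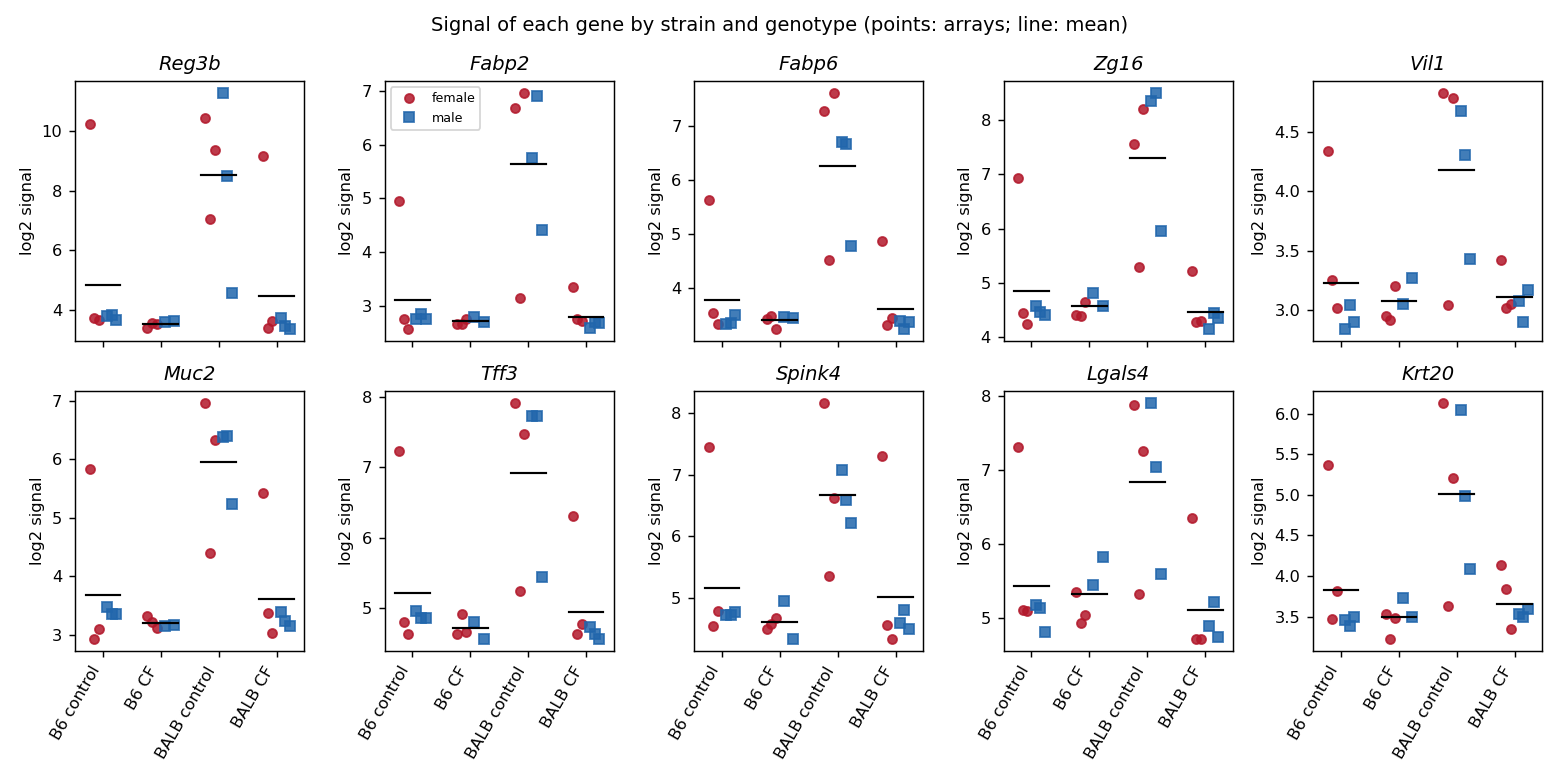
Log2 signal of each gene by strain and genotype, where points are arrays (circles female, squares male) and lines are group means. BALB controls spread widely in each panel, and 1 female array is far above the rest in B6 control and, in most panels, in BALB CF.

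The 10 genes followed each other closely across arrays, which describes the choice of genes and carries no test. Over the 45 pairs, Pearson's r across the 23 arrays ran from 0.84 (Fabp2 with Spink4) to 0.98 (Fabp2 with Fabp6), with a median of 0.94. Within the 6 BALB controls alone r ran from 0.62 (Zg16 with Spink4) to 0.99 (Lgals4 with Krt20), with a median of 0.91. In ranks over those 6 arrays, Spearman's rho ran from 0.43 (Reg3b with Fabp2) to 1.0 (Spink4 with Krt20), with a median of 0.77. BALB control female 2 ranked lowest of the group for 9 of 10 genes, all but Reg3b. These arrays share their strain and genotype, and the points of a pair share their array.

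The proportions among the genes differed between arrays. On the linear scale, each gene's excess over its median was set against the same gene's excess on its highest array. On BALB CF female 1 that share was 2.88% for Fabp2 and 3.95% for Zg16, but 22.6% for Reg3b, 28.6% for Muc2 and 50.3% for Spink4. On BALB control male 2 the order was turned, with 95.5% for Fabp2 and 100% for Zg16, against 13.9% for Reg3b and 26.5% for Spink4. On B6 control female 1 the shares ran from 20.5% for Fabp2 to 60.2% for Lgals4. BALB control female 1 had 48.4% or more of the highest excess for all 10 genes, while BALB control male 3 had 0.432% for Reg3b and 23.9% for Muc2. Thus no 1 scale factor for each array described the 10 genes, and these shares have no replicate error. In bulk RNA, fewer cells of a type and less RNA per cell cannot be told apart.

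**Figure D3:**
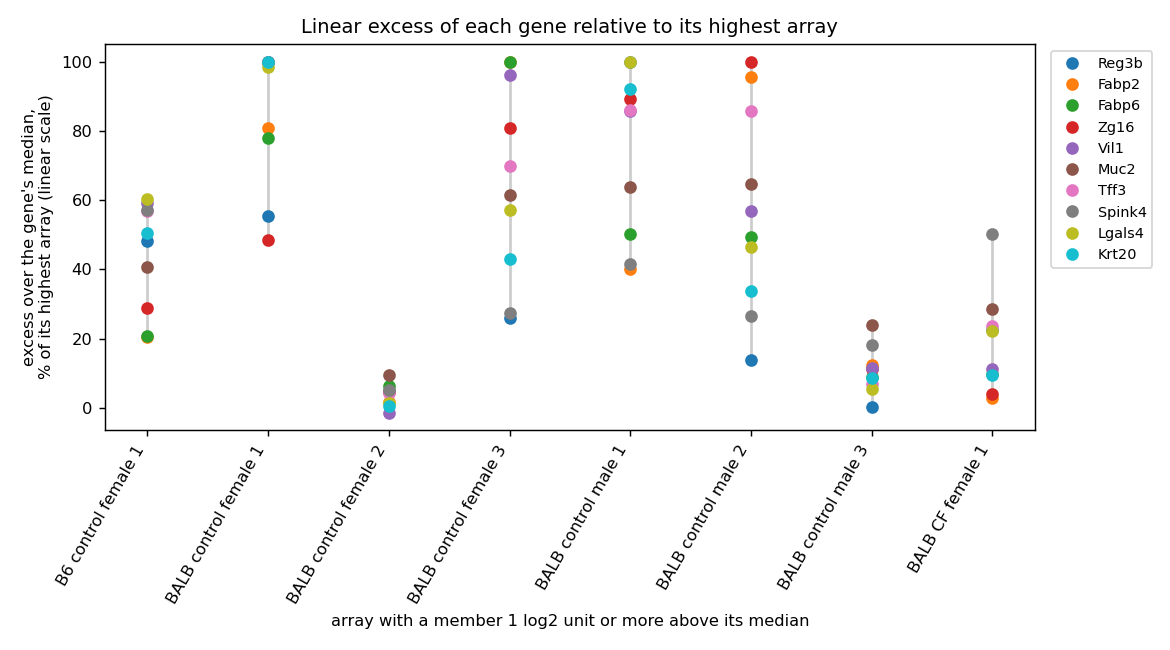
Linear excess of each gene over its median, as a percentage of the excess on that gene's highest array, for the 8 arrays with at least 1 raised gene. Spink4 and Fabp2 lie at opposite ends on BALB CF female 1 (50.3% and 2.88%) and on BALB control male 2 (26.5% and 95.5%).

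The question the series names is how the lungs of the strains differ in cystic fibrosis. In BALB, 9 of the 10 genes were lower in CF than in control lungs at an adjusted p under 0.05 (limma fit of 8 groups over all 45037 probe sets, Benjamini-Hochberg), and 2.33% of all probe sets were lower at that threshold. Since the genes were chosen for high signal on these same arrays, nothing is read from the count. The mean of 6 CF arrays against 6 controls was 4.46 ± 2.30 (SD) against 8.52 ± 2.44 for Reg3b, a difference of -4.07 with a standard error of 1.12. For Fabp2 it was 2.80 ± 0.27 against 5.64 ± 1.56, a difference of -2.84 with a standard error of 0.51. Zg16 and Fabp6 fell by 2.86 and 2.66, Muc2 by 2.35, Tff3 by 1.98, Lgals4 by 1.73, Krt20 by 1.36 and Vil1 by 1.07. Spink4 differed by -1.66 with a standard error of 0.50 and did not pass (adjusted p = 0.0577, limma). The median difference of the 10 genes was -2.16, against -0.01 over all genes.

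The BALB groups overlapped for 9 of 10 genes. Zg16 alone did not overlap in its brightest probe set, with a lowest control of 5.29 and a highest CF value of 5.21. Its other 2 probe sets overlapped, with lowest controls of 3.59 and 4.51 against highest CF values of 3.83 and 4.53. In the brightest probe sets the overlap came from BALB CF female 1. Without that array 8 genes did not overlap, and Vil1 and Krt20 still did. The share of all probe sets without overlap was not computed, so these counts only describe the chosen genes. The number of genes past the threshold depended on other arrays as well: it was 4 without BALB control male 1 or without BALB control female 1, and 5 without BALB control female 3. With both B6 control female 1 and BALB CF female 1 left out, it was 10, and the difference of Reg3b was then -5.01.

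In controls, BALB exceeded B6 for 10 of 10 genes past the threshold, where 7.46% of all probe sets were higher. Differences ran from 0.95 for Vil1 (4.18 ± 0.76 against 3.23 ± 0.56, SD, 6 arrays each) to 3.70 for Reg3b (8.52 ± 2.44 against 4.83 ± 2.65). The median of the 10 was 1.99, against 0.02 over all genes. This comparison uses the same BALB control arrays as the CF comparison in BALB, so the 2 sets of values are not separate evidence. For each gene B6 control female 1 lay inside the range of BALB controls, and the other 5 B6 controls were low. The count was 4 without BALB control female 1, 5 without BALB control female 3, and 6 without BALB control male 1, B6 control female 2 or B6 control female 3.

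In B6, 0 of 10 genes passed between CF and control in the limma fit, where 4.71% of probe sets passed in either direction, and 0 had an unadjusted p under 0.05. The differences ran from -1.27 for Reg3b (standard error 1.19) to -0.07 for Lgals4 (standard error 0.46), with adjusted p-values of 0.666 to 0.967. They rested on B6 control female 1. Without it the difference of Reg3b was -0.18 and that of Fabp2 0.00, and Lgals4, Zg16 and Vil1 turned to 0.30, 0.17 and 0.06.

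The difference between strains in the CF effect, BALB minus B6, was tested directly. In the brightest probe sets it passed for Zg16 only, at -2.60 with a standard error of 0.69 (adjusted p = 0.0481, limma). Of all probe sets, 1.2% passed in that direction. The other 2 Zg16 probe sets did not pass, at -2.40 and -0.81 (adjusted p = 0.155 and 0.345, limma). The median over the 10 genes was -1.76. For Reg3b, the gene with the largest CF difference in BALB, it was -2.80 with a standard error of 1.63 and did not pass (adjusted p = 0.437, limma). The count was unsteady: 0 genes passed in 19 of the 23 fits that left out 1 array each, while 2 passed without BALB CF female 1, 3 without BALB control male 3, 4 without B6 control female 1 and 5 without BALB control female 2. Without both B6 control female 1 and BALB CF female 1, 8 passed. It was 7 with arrays weighted by their quality and 0 with the robust form of the variance estimate.

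Between the sexes, 0 of 10 genes passed in control lungs (limma), where 2.43% of probe sets passed in either direction, and 0 had an unadjusted p under 0.05. The largest difference, female minus male, was 1.47 for Reg3b with a standard error of 1.12. In BALB controls Fabp2 was 5.59 ± 2.12 (SD, n = 3) in females and 5.69 ± 1.25 (n = 3) in males, and the spread within each sex exceeded the difference.

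Over strain and genotype, the mean of each gene was highest in BALB controls, followed by B6 controls. BALB CF and B6 CF came below them, and B6 CF was lowest for 8 of 10 genes. The means of B6 controls were raised by female 1. By medians, B6 controls were below B6 CF for Zg16 (4.45 against 4.57), Vil1 (3.03 against 3.05), Lgals4 (5.12 against 5.35) and Krt20 (3.48 against 3.49). For Fabp6 both medians were 3.43, and for the other genes B6 controls were higher. The means of B6 control, BALB CF and B6 CF differed by less than the SD of the B6 controls for each gene. That SD was widened by the high female array named above, and for Reg3b it was 2.65, against 0.08 in B6 control males. A comparison with that SD therefore cannot decide whether those groups differ. B6 CF arrays had the smallest spread, with an SD of 0.06 for Fabp2 and 0.09 for Reg3b over 5 arrays, and 0 of them had a raised gene.

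**Figure D4:**
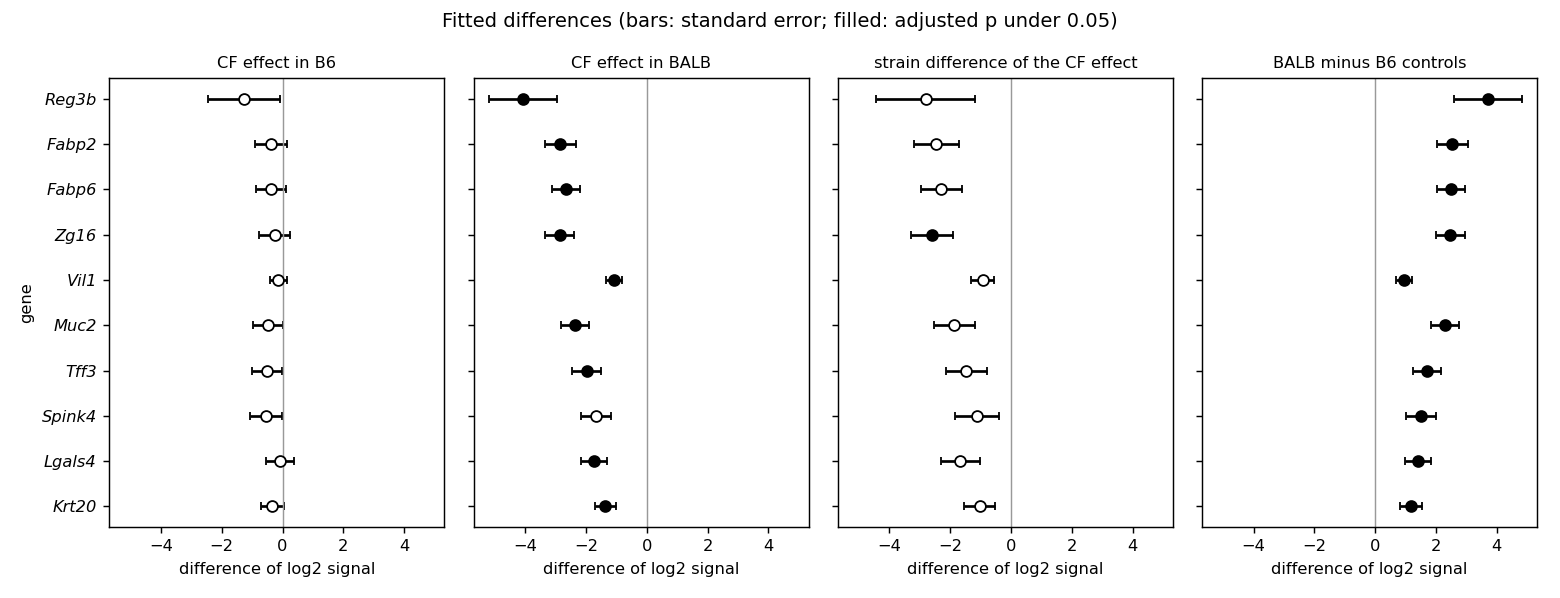
Fitted difference of log2 signal for each gene in 4 comparisons, with bars for the standard error and filled points for an adjusted p under 0.05. Each point is the brightest probe set of its gene. In BALB 9 of 10 points are filled on the lower side and between control strains 10 of 10 on the higher side. In B6 none is filled, and for the strain difference only Zg16.

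Genes outside the chosen 10 followed the same arrays. Among 2618 other genes with a range of at least 1 unit, 22 correlated with the member score at r of 0.9 or more across the 23 arrays and 34 at 0.8 or more. The most alike were Guca2a, which encodes the gut peptide guanylin (r = 0.98), the brush border protease meprin subunit Mep1b (0.98), Lypd8, a colonic protein that keeps bacteria off the epithelium (0.97), and the membrane mucin Muc3 (0.97). They were followed by the amino acid transporter subunit Slc7a9 (0.96), the mucin Muc13, the brush border myosin Myo1a and the bile acid exporter subunit Slc51a (0.95 each). The rest of the leading 15 were Slc13a1, Apoa1, Clca4a, Cdh17, Clca4b, Spink1 and Lgals2 (0.92 to 0.94). These values are descriptive, since the arrays that raise the score raise any gene high on them.

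The genes shared many of their nearest neighbours, and the 5 nearest of each of the 10 were 16 distinct genes in all. By unrounded r, Mep1b was nearest to Vil1, Lgals4 and Krt20, and Guca2a to Muc2, Tff3 and Spink4. After rounding, Lgals4, Tff3, Spink4 and Fabp6 had ties for the nearest gene. Reg3b was nearest to Lypd8 (r = 0.99), which read 7.09 on B6 control female 1, 7.79 on BALB control female 1, 7.86 on BALB control male 1, 3.67 on BALB control male 3 and 6.69 on BALB CF female 1. Like Reg3b, Lypd8 was therefore lowest among the BALB controls on male 3. Fabp2 was nearest to the peptidase Naaladl1 (0.97), Fabp6 and Zg16 to the transporters Slc13a1 (0.97) and Slc7a9 (0.95). For Spink4, Guca2a, Itln1 and Lypd8 were equally near after rounding (0.95). Itln1, an intestinal lectin, read 7.41 on B6 control female 1, more than on any BALB control (4.39 to 6.60), and 6.74 on BALB CF female 1. Guca2a read 5.77 and 5.48 on those arrays and 4.57 to 6.54 on BALB controls.

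Wider lists of intestinal genes, drawn up with results of these arrays known, moved only in part. Of 45 measured genes of enterocyte absorption and brush border, 14 stood apart on at least 1 array and 31 on none. The largest number on 1 array was 11, on BALB control female 1. The share of all genes standing apart on an array was not computed, for this list or those below. Standing apart requires a range of at least 1 unit, which 2618 of the 18193 genes had outside the chosen 10. The largest excess in the list was 6.29 for Ada, on BALB CF female 3, where the member score was -0.20. Next came 3.92 for Muc3, 2.75 for Mep1b and 2.72 for the apolipoprotein Apoa1, all on BALB control female 1. The raised genes also included Phgr1, Prap1, Cubn and Mep1a, and the genes not raised included 5 other enterocyte products, all 9 of them picked after their values were seen. For those 5 the largest excess was 0.63 for Apoa4, 0.79 for the alkaline phosphatase Alpi, 0.28 for the lactase Lct, 0.34 for the peptide transporter Slc15a1 and 0.99 for Fabp1, the last on B6 CF female 3. Probe sets differ in how they respond, so these genes are not ranked by level. In BALB 13 of the 45 were lower in CF and 1 was higher, against 484 lower and 522 higher of all 18193 genes. The one that rose was the adenosine deaminase Ada (2.40), which read 8.36, 9.34 and 11.11 on the BALB CF females and 9.54 on B6 control male 3, and so did not follow the 10 genes. Between control strains 15 of the 45 were higher in BALB and 0 lower (2 lower at an unadjusted p under 0.05, limma), against 1572 higher and 1743 lower of all genes. In B6 3 were lower in CF (Anpep, Enpep and Dpp4) and 0 higher, also at an unadjusted p under 0.05 (limma), against 273 lower and 714 higher of all genes.

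Of 6 measured genes of ileal bile acid handling, Slc51a (-0.71) and Slc51b (-0.45), the 2 subunits of the basolateral exporter, were lower in BALB CF. The uptake transporter Slc10a2 reached 0.50 above its median at most and the hormone Fgf15 0.44. Of 18 further goblet cell genes, 4 stood apart on at least 1 array (Clca1, Retnlb, Reg4 and Agr2), and none was lower in BALB CF at the threshold (limma, with 2 lower at an unadjusted p under 0.05), while Sytl2 rose by 0.27. Of 15 Paneth cell and gut antimicrobial genes, 9 stood apart on at least 1 array, Retnla and Reg3g among them. Retnla was highest on B6 CF female 3, and Reg3g read 10.08 on BALB CF male 2, where the member score was -0.12. The mean excess of the 15 was highest on B6 control female 1 (1.77, with 9 genes raised). BALB control male 1 (1.26) and BALB CF female 1 (1.24) followed, and it was 1.07 or less on the other arrays. That order differed from the member score, which was highest on BALB control female 1. In BALB, 0 of the 15 passed between CF and control in the limma fit, and at an unadjusted p under 0.05 there were 5 lower and 1 higher.

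Transcription factors of the gut epithelium had little excess on any array. Over the 15 measured, among them Cdx1, Cdx2, Hnf4a, Hnf4g and Atoh1, 0 stood apart on any array and the mean excess lay between -0.12 and 0.10. The largest excess of any of the 15 was 0.66, for Klf4 on B6 CF male 2, where the member score was -0.04. The gut-specific factors Cdx2 and Cdx1 reached 0.40, on BALB CF female 1, and 0.34, on BALB control male 1. In BALB, Klf4 (-0.85) and Vdr (-0.28) were lower in CF, and both are also expressed outside the gut. Between control strains Cdx1 was 0.22 higher in BALB. Mean excesses of lists for other organs lay between -0.17 and 0.20 for stomach, -0.15 and 0.18 for exocrine pancreas, and -0.09 and 0.22 for colon. The liver list had a wider range, from -0.47 to 0.61. It includes Serpina1b, which read 2.64 to 3.32 on B6 and 7.11 to 7.99 on BALB arrays and so lowered the mean on B6. The list was highest on BALB control male 3 (0.61, with Cyp2e1 and Pck1 raised) and BALB control female 2 (0.52, with Cyp2e1 and Alb raised). On each, 2 of 13 genes were raised. Those were the BALB controls with the lowest member scores. Alveolar epithelial genes were level, between -0.12 and 0.12, and airway secretory genes lay between -0.44 and 0.43. Whether the 10 genes were transcribed in lung cells or came with RNA of another tissue was not tested.

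Genes of squamous epithelium and skeletal muscle also stood apart on some arrays, partly the same ones. The mean excess of 22 squamous genes was 3.09 on B6 control male 3 and 1.52, 1.88 and 3.13 on BALB CF females 1, 2 and 3. It was 0.84 on B6 control female 1 and 0.03 or less on BALB controls. For 20 muscle genes it was 1.93 on B6 control male 3, 0.99, 1.37 and 2.41 on the BALB CF females and 0.43 on B6 control female 1. The member score was -0.08 on B6 control male 3 and -0.15 and -0.20 on BALB CF females 2 and 3. The intestinal genes were thus high without squamous genes on BALB controls, and both were high on B6 control female 1 and BALB CF female 1. The part of these other tissues' genes in the differences above was not tested.

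**Figure D5:**
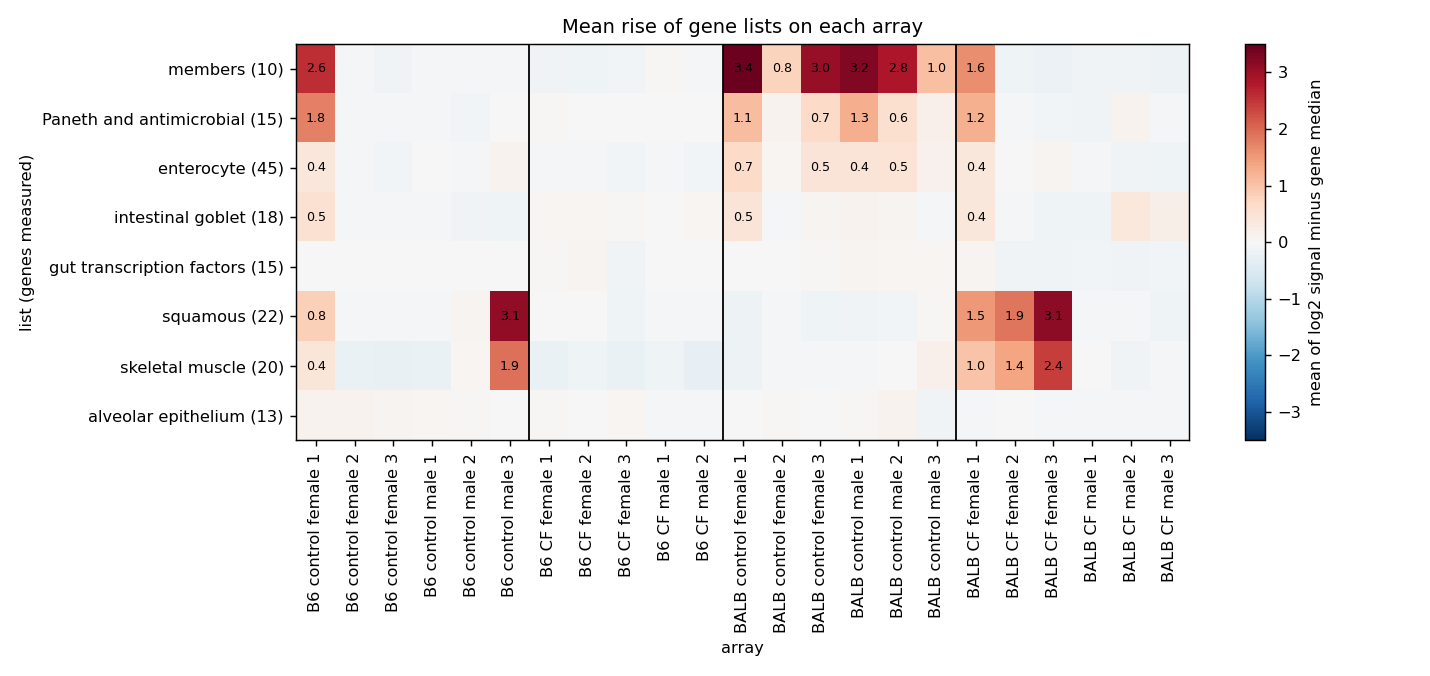
Mean excess of log2 signal over gene medians for 8 lists (rows, with the number of measured genes) on the 23 arrays (columns). The 10 genes and the Paneth list are raised on overlapping sets of arrays, the transcription factor and alveolar lists on none, and the squamous and muscle lists mainly on B6 control male 3 and the BALB CF females.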

How the data were processed

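The labels give total RNA of whole right lung labelled with biotin, in 23 samples. The values are the authors' deposited series table of 45101 probe sets, taken here as log2 signal. That scale was inferred from the values (1.79 to 13.82, alike on every array). For probe summary, background correction and normalization, the method is not given in the sources used here. Columns were matched to groups by sample titles, and replicate numbers are those of the titles. Control probe sets (64) were left out. Gene names came from the platform annotation: 34945 probe sets had 1 symbol, 932 several and 9160 none.

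The 10 genes, the 16 other gene lists and the comparisons were chosen with earlier results of these data known. A gene is given by the probe set of highest mean, and 1 unit (alternatives 0.5 and 2) marks an array as standing apart. Means of 8 groups were fitted together in R 4.3.3 with lmFit and eBayes of limma 3.58.1. Residual degrees of freedom were 15, and 5.81 came from the prior. The fit gives each probe set a common variance in all 8 groups. The spread of the chosen genes was unequal, and for Reg3b the SD was 0.02 in B6 CF males and 3.76 in B6 control females. Standard errors and adjusted p-values do not allow for this. P-values were adjusted by Benjamini-Hochberg over 45037 probe sets within each comparison, threshold 0.05. An effect is the mean of both sexes. The fit was tested on simulated data. Other genes named are the up to 4 of widest range in each list, the 15 most like the member score and the 5 most like each gene, and others are said to be picked after their values were seen or are part of a full count. The number of arrays limits the precision. Alternatives were quantile normalization, median centring, a brightness filter, robust variances, array weights, fits on only the groups compared, a replicate block and leaving out each array. Leaving out B6 control female 1 and BALB CF female 1 together was added after seeing the data. Promoter sequences came from RefSeq (GRCm38.p6), 7 of 10 genes matched, and 32851 promoters gave the background.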

Additional observations from a re-analysis of the deposited data

Results flagged for a closer look

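Each gene was examined in each strain and genotype for an array far from the others of its group, and 19 of the 40 sets of 5 or 6 arrays held such an array by Dixon's criterion (gap over range above 0.710 for 5 arrays and 0.625 for 6). Chance flags about 1 in 20 sets, and the genes share their arrays, so the 40 sets are not separate. The genes were also chosen for high signal on some of these arrays, so the number flagged only describes them. The share flagged over all genes was not computed. In B6 controls it was female 1 for all 10 genes, with log2 signals of 10.23 for Reg3b, 4.95 for Fabp2, 5.63 for Fabp6, 6.93 for Zg16, 4.34 for Vil1, 5.83 for Muc2, 7.23 for Tff3, 7.46 for Spink4, 7.31 for Lgals4 and 5.37 for Krt20. In BALB CF it was female 1 for 8 genes, all but Vil1 and Krt20, with 9.15 for Reg3b, 3.35 for Fabp2, 4.86 for Fabp6, 5.21 for Zg16, 5.43 for Muc2, 6.31 for Tff3, 7.30 for Spink4 and 6.36 for Lgals4. In B6 CF it was female 3 for Fabp6, whose 3.24 was the lowest of 5 arrays that spanned 3.24 to 3.48. BALB controls gave no such array for any gene, as their values were spread through the range.

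The CF effect on the brightest Zg16 probe set differed between the strains by -2.60 (BALB minus B6, adjusted p = 0.0481, limma). The other 2 Zg16 probe sets did not pass (adjusted p = 0.155 and 0.345, limma). For the brightest, the adjusted p (limma) lay between 0.00205 and 0.118 over the alternatives that gave this comparison.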

How the results depend on the processing

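Numbers of the 10 genes past the threshold did not change between B6 CF and control or between the sexes (0 under all alternatives). The CF count in BALB (9) was 5 among brighter probe sets only, where 5 of the 10 genes (Fabp2, Fabp6, Vil1, Muc2 and Krt20) were not tested, 5 with robust variances, 5 in a fit of only the groups compared, and 4 to 10 when 1 array was left out. The control strain count (10) was then 5, 6, 4, and 4 to 10. The strain difference count (1) was 0 with robust variances, 7 with array weights, 8 without both B6 control female 1 and BALB CF female 1, and 0 to 5 with 1 array left out. Apart from what fewer genes or arrays explain, the cause was not tested.

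Over all probe sets, array weights moved the counts for the CF effect in BALB from 2217 to 3824, for the strain difference from 1142 to 2043 and for sex from 1094 to 3666. Only the BALB groups gave 1406, and leaving out both arrays gave 2080 for sex. With 1 array left out, the counts were 852 to 2329 for CF in B6, 1368 to 2851 for CF in BALB, 591 to 1568 for the strain difference and 477 to 1772 for sex.

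Reversals concerned differences that did not pass. Array weights turned CF in B6 for Lgals4 to 0.13 and sex for Zg16 to -0.19. Leaving out both arrays turned CF in B6 to 0.17 for Zg16, 0.06 for Vil1 and 0.30 for Lgals4, and sex to -0.11 for Fabp2, -0.36 for Zg16, -0.24 for Muc2 and -0.13 for Tff3. With 1 array left out, CF in B6 ran from -0.25 to 0.30 for Lgals4, -0.50 to 0.17 for Zg16 and -0.27 to 0.06 for Vil1. Sex ran from -0.11 to 0.88 for Fabp2, -0.36 to 0.50 for Zg16, -0.24 to 0.60 for Muc2 and -0.13 to 0.69 for Tff3.

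With the replicate block the counts of genes were 10 for CF in BALB, 10 between control strains, 1 for the strain difference and 0 for the others. Same-numbered CF and control arrays of the same strain and sex did not deviate together (0 of 11 pairs with r over 0.1, range -0.168 to 0.066). Pairs across sexes or strains were not compared, and whether the numbers mark a batch was not tested. At least 5 raised genes were found on 7 arrays, on 8 with a limit of 0.5 units and on 5 with 2 units. Depth does not apply to arrays, and detection calls were not used here.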

Other observations

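Other gut proteins were highest on arrays that were also the highest for only some of the 10 genes, or for none of them. Ang4, an antimicrobial ribonuclease of Paneth cells, read 7.90 on B6 control female 1, 7.69 on BALB control female 1 and 7.09 on BALB CF female 1, against 4.49 to 5.17 on the other BALB controls and 3.89 to 4.23 elsewhere. The goblet cell products Retnlb and Reg4 were highest on the same 3 arrays, at 5.58, 5.87 and 6.17 for Retnlb and 6.24, 5.85 and 6.27 for Reg4. Of the 10 genes, Spink4 was also highest on these 3 arrays, at 7.46, 8.17 and 7.30. Retnlb lay between 3.22 and 3.72 on the other 20 arrays. Reg4 was also raised on BALB control male 2 (5.13) and lay between 3.72 and 4.68 on the other 19. Clca1, made by goblet cells of gut and airway, read 8.76 on B6 control female 1 and 7.99 on BALB control female 1, but also 9.03 and 8.18 on BALB CF males 2 and 3, where the member scores were -0.12 and -0.19. Dmbt1, a mucosal scavenger receptor, was highest on BALB control male 1 (7.62), as Reg3b and Lgals4 were, and read 3.81 on BALB control male 2.

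Pla2g2a, a secreted phospholipase of Paneth cells that is inactivated by a frameshift in C57BL/6 mice, read 8.81 on B6 control female 1, above 8.01 on BALB CF female 1, 7.05 on BALB control male 2, 5.65 on BALB control female 3 and 4.78 on BALB control male 3. It read 3.84 to 4.27 on the remaining 18 arrays, BALB control female 1 (4.0) and male 1 (4.26) among them, although their member scores were the highest. On the same B6 control female 1 array Serpina1b, whose signal was 2.64 to 3.32 on B6 and 7.11 to 7.99 on BALB arrays, read 2.81. The origin of the Pla2g2a signal on that array was not tested.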
